A study of Canis lupus familiaris with 12 samples.

Results

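Cartilage and mineralisation genes were followed in the mitral valve and the left ventricle of diseased and control dogs. The disease was degenerative mitral valve disease (DMVD), in which the leaflets thicken and the valve leaks. The genes were chosen by name, with earlier results of these data known. They were SOX9, ACAN, CHAD, CRTAC1, SCRG1, SPP1, MGP, RUNX2, TNFRSF11B and ALPL, looked up by symbol or UniProt entry name. A row was found for 7 of these 10, among 24223 genes listed for each tissue. MGP, RUNX2 and ALPL matched no row by either name and were not analysed here.

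RNA was sequenced in 12 libraries from 8 dogs, if libraries whose titles, breeds and ages match are taken as one dog. The DMVD valves came from 3 dogs, a Pomeranian of 9 years and Beagles of 17 and 16 years, and the control valves from 3 dogs, a Beagle (8 years) and Hound mixes (3 years, 2 dogs). The DMVD left ventricles came from 2 dogs, a Jack Russell Terrier of 5 years and the Pomeranian of 9 years, and the control ventricles from 4 dogs, the same Beagle and 3 Hound mixes, again 3 years old. Diagnosis and age therefore cannot be told apart in the valve, where every DMVD dog was older than every control dog. Beagles were in both valve groups but the other breeds were not, so breed is not separated from diagnosis there either. In the ventricle the DMVD and control groups shared no breed, so diagnosis and breed cannot be told apart in that tissue. Per the labels the control dogs were normal. No labelled treatment or further allele separates the groups.

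Cartilage is built by chondrocytes under the control of SOX9, which switches on the aggregating proteoglycan aggrecan, small leucine-rich proteins and the fibrillar cartilage collagens. The atrioventricular valves share part of this programme during development, and SOX9 is known to be needed for their matrix. Mineral deposition in soft tissue depends on a balance of promoters, such as osteoblast transcription factors and phosphate-releasing enzymes, and inhibitors, such as osteopontin and osteoprotegerin. In people calcification is typical of aortic valve stenosis, while the degenerating mitral valve of the dog mainly accumulates proteoglycans.

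The deposited values are one FPKM per gene, tissue and diagnosis, that is, sequenced fragments scaled by gene length and library size. The tables hold no value per dog, so neither the spread among dogs nor the sequencing depth is known. Log2 fold changes are DMVD over control. Each ± gives a standard error (SE) recovered from the authors' test statistic, and intervals are 95% normal intervals from that SE. Of the 14810 genes tested in the valve, 0.311% passed a Benjamini-Hochberg adjusted p of 0.05 as higher in DMVD and 0.108% as lower. Of the 13788 genes tested in the ventricle 1.92% passed as higher and 1.16% as lower, 3.08% in all. The median log2 fold change of all tested genes was 0.05 in the valve and -0.04 in the ventricle. The DMVD value was the higher one for 54.9% of genes tested in the valve and 46.8% of those tested in the ventricle. Counts of directions below stand beside these shares. Defining markers of the labelled valve tissue were abundant, with 1115 FPKM of the proteoglycan DCN in DMVD valves and 1011 FPKM in control valves. Heart muscle transcripts were abundant there too, with 1846 FPKM of TNNT2, cardiac troponin T, in DMVD valves and 4523 FPKM in control valves. The TNNT2 log2 fold change of -1.29 ± 2.52 did not pass. Cardiac actin, ACTC1, had 3164 FPKM in DMVD valves and 2785 FPKM in control valves, and its 0.18 ± 2.13 did not pass. It was the 1 of 13 tested cardiomyocyte markers with the higher value in DMVD valves. In bulk tissue fewer cells of a type and less RNA per cell cannot be told apart.

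In the valve the 7 genes spanned 1.84 to 138.7 FPKM in DMVD and 0.652 to 139.6 FPKM in control. In DMVD valves the order was SPP1, SCRG1, SOX9, TNFRSF11B, ACAN, CHAD and CRTAC1, from the highest level to the lowest. In control valves SCRG1 stood first and SPP1 second, followed by ACAN, SOX9, CHAD, TNFRSF11B and CRTAC1. The order is a description, since the group values carry no spread. Set among all tested genes of the same group, SPP1 lay at percentile 96.0 in DMVD valves and 95.5 in control valves. SCRG1 lay at percentile 93.9 in DMVD valves and 96.1 in control valves. CRTAC1 lay lowest, at percentile 19.9 in DMVD valves and 6.57 in control valves.

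**Figure D1:**
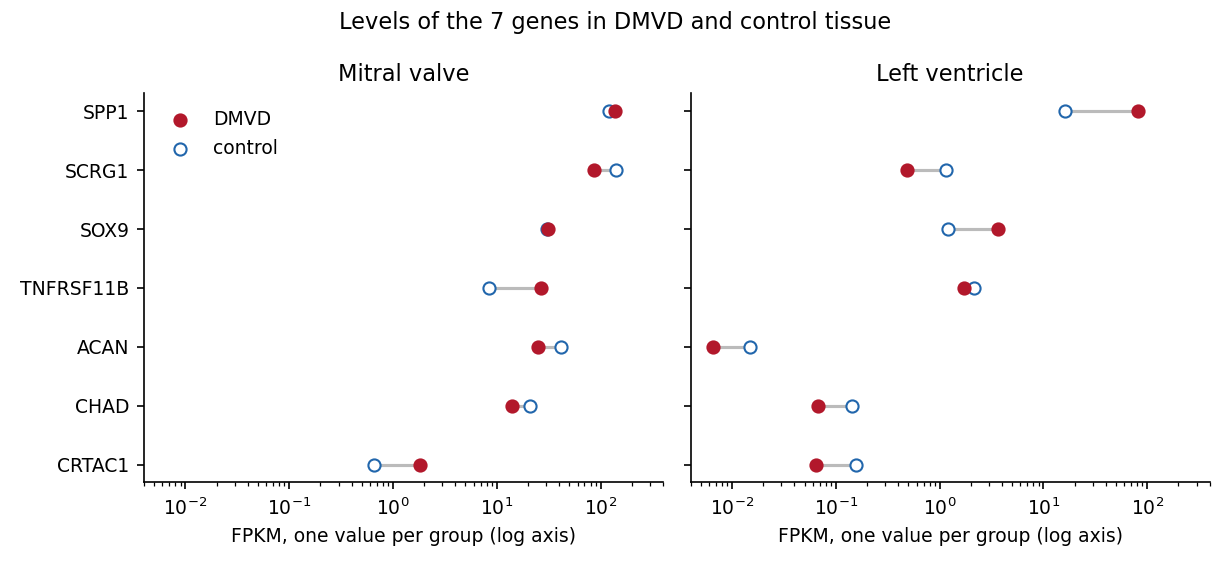
FPKM of each gene in DMVD (filled) and control (open) tissue on a log axis, with the mitral valve on the left and the left ventricle on the right; each point is one group value and has no error bar. All 7 genes sit at or above 0.652 FPKM in the valve, while ACAN, CHAD and CRTAC1 sit under 0.2 FPKM in both ventricle groups.

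None of the 7 genes passed the test in the valve, where all 7 were tested, against 0.311% of all genes called higher and 0.108% called lower. At an unadjusted p of 0.05 in the authors' deposited table TNFRSF11B alone of the 7 was higher in DMVD and 0 were lower, where 4.2% of all tested valve genes passed that limit in either direction. The values were higher in DMVD for 4 genes and lower for 3, and the median log2 fold change of the 7 was 0.04, beside 0.05 for all tested genes. The SE of these genes ran from 0.49 to 0.95 on the log2 scale, so the intervals leave room for changes in either direction for 6 of them. ACAN, CHAD and SCRG1 had the lower values in DMVD valves, and TNFRSF11B had the highest fold change.

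The transcription factor SOX9 (ENSCAFG00000004374, chromosome 9, 8275049 to 8280390 on CanFam3.1) directs chondrocyte differentiation. It had 31.5 FPKM in DMVD valves and 30.7 FPKM in control valves. Its log2 fold change was 0.04 ± 0.49, with an interval of -0.92 to 0.996. The sign flips to -0.01 when fold changes are centred on the median of all tested genes and to -0.43 when they are centred on markers of valve interstitial cells, the fibroblasts of the leaflet, such as DCN and COL1A1. Its partner factors SOX5 and SOX6, which bind cartilage enhancers together with SOX9, were at lower levels per length. SOX5 had 0.653 FPKM in DMVD valves and 0.910 FPKM in control valves, and SOX6 had 0.572 FPKM in DMVD valves and 0.626 FPKM in control valves.

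Aggrecan, the product of ACAN (ENSCAFG00000011534, chromosome 3, 51995115 to 52032255), is the large chondroitin sulphate proteoglycan that holds water in cartilage. ACAN had 24.9 FPKM in DMVD valves and 41.5 FPKM in control valves. This was a log2 fold change of -0.74 ± 0.64, with an interval of -1.99 to 0.52 (Benjamini-Hochberg adjusted p of the authors' test = 0.9999). Centred on the interstitial cell markers it was -1.21, which did not pass either. Versican, the related proteoglycan encoded by VCAN, was higher per length in both groups: the ratio of ACAN to VCAN in FPKM was 0.181 in DMVD valves and 0.558 in control valves. That ratio was not tested. HAPLN1, the link protein that fastens aggrecan to hyaluronan, had 2.57 FPKM in DMVD valves and 5.40 FPKM in control valves, with a log2 fold change of -1.07 ± 0.55 that did not pass.

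Chondroadherin, encoded by CHAD (ENSCAFG00000017064), is a leucine-rich repeat protein of cartilage that binds collagen and integrins. CHAD had 14.1 FPKM in DMVD valves and 20.8 FPKM in control valves. For CHAD the log2 fold change was -0.56 ± 0.53, with an interval of -1.61 to 0.48, and centring on the interstitial cell markers made it -1.03. The table gives CHAD and the acyl-CoA synthetase gene ACSF2 one locus, chromosome 9, 26377861 to 26409331, and CHAD lies inside ACSF2 in the RefSeq table of the assembly UU_Cfam_GSD_1.0. Whether the counting used strand was not given in the sources used here, so reads from these 2 genes may not be told apart. ACSF2 had 5.07 FPKM in DMVD valves and 7.33 FPKM in control valves, lower per length than CHAD in both groups.

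SCRG1 (ENSCAFG00000007857, chromosome 25, 23987091 to 23989934) encodes a small secreted protein, stimulator of chondrogenesis, that rises when mesenchymal cells turn into chondrocytes. SCRG1 had 85.7 FPKM in DMVD valves and 139.6 FPKM in control valves. This gave a log2 fold change of -0.70 ± 0.57, with an interval of -1.81 to 0.41, and of -1.18 when centred on the interstitial cell markers. Of the 7 genes it had the highest control valve level.

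CRTAC1 (ENSCAFG00000009271) encodes cartilage acidic protein, a secreted glycoprotein first described in chondrocytes. CRTAC1 had 1.84 FPKM in DMVD valves and 0.652 FPKM in control valves. Its log2 fold change of 1.50 ± 0.95 had the widest interval of the 7, from -0.37 to 3.36, and was 0.78 after 1 FPKM was added to both groups. Its listed locus, chromosome 28, 11067587 to 11227067, is shared with GOLGA7B, whose end overlaps it in the RefSeq table. GOLGA7B had 1.54 FPKM in DMVD valves and 0.528 FPKM in control valves, so its values differ in the same direction and whether the genes share reads was not tested.

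Osteopontin, encoded by SPP1 (ENSCAFG00000009569, chromosome 32, 11354096 to 11362391), is a secreted phosphoprotein that binds mineral, integrins and CD44 and restrains crystal growth. Macrophages also make it. SPP1 had 138.7 FPKM in DMVD valves and 121.5 FPKM in control valves. The log2 fold change was 0.19 ± 0.55, with an interval of -0.88 to 1.26, and the sign turns to -0.28 when fold changes are centred on the valve interstitial cell markers. The other bone sialoprotein IBSP was listed at 0.0160 FPKM in DMVD valves and at 0 in control valves.

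Osteoprotegerin, encoded by TNFRSF11B (ENSCAFG00000000834, chromosome 13, 18155274 to 18183416), is a secreted decoy receptor that binds RANKL and so limits osteoclast formation. TNFRSF11B had 26.6 FPKM in DMVD valves and 8.40 FPKM in control valves, a ratio of 3.17. The log2 fold change was 1.66 ± 0.50, with an interval of 0.68 to 2.65. It had p = 0.000972 in the authors' deposited table and ranked 109th of the 14810 tested valve genes, but its Benjamini-Hochberg adjusted p was 0.132, so the difference did not pass. Over the alternatives its adjusted p ran from 0.0565 to 1, and its log2 fold change was 1.19 when centred on the interstitial cell markers. RANKL itself, the gene TNFSF11, had 0.0771 FPKM in DMVD valves and 0.0701 FPKM in control valves. Its signalling receptor TNFRSF11A had 0.394 FPKM in DMVD valves and 0.287 FPKM in control valves, and neither of the pair was tested by the authors.

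**Figure D2:**
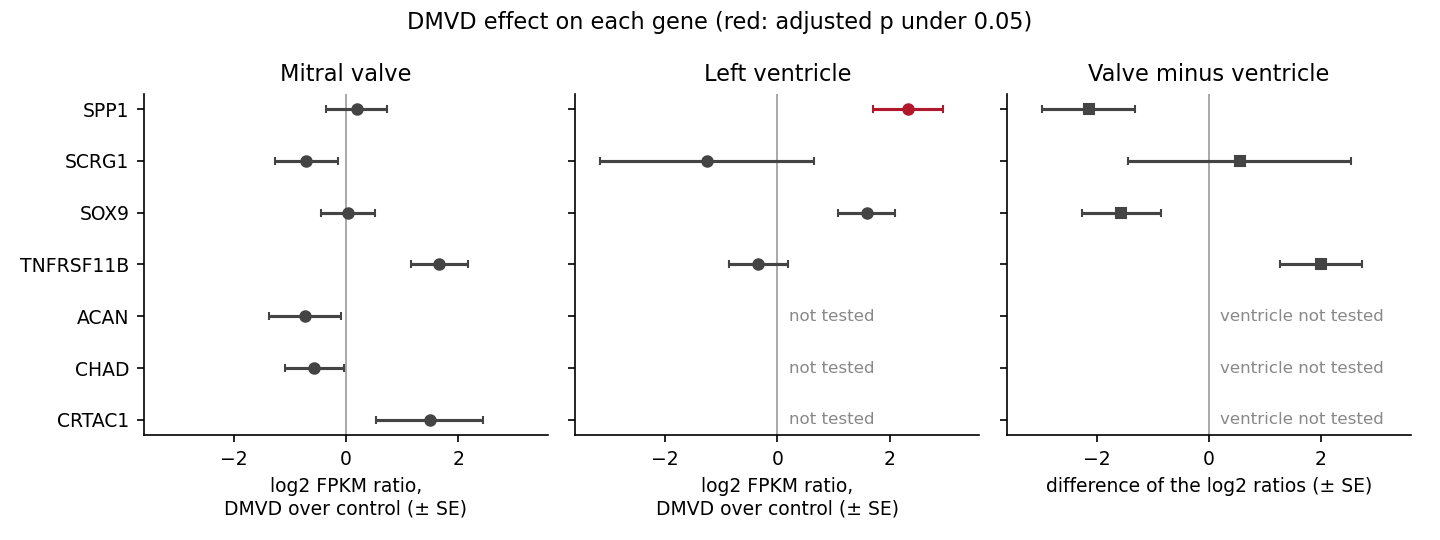
Log2 FPKM ratio of DMVD over control for each gene in the mitral valve (left) and the left ventricle (middle), and the valve value minus the ventricle value (right); bars are ± 1 SE from the authors' test statistic and red marks an adjusted p under 0.05. Only SPP1 in the ventricle is red, at 2.33, and TNFRSF11B has the largest valve value, at 1.66.

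In the left ventricle 4 of the 7 genes were tested, and 1 of them rose in DMVD, SPP1, against 1.92% of all tested ventricle genes called higher. SPP1 had 80.7 FPKM in DMVD ventricles and 16.0 FPKM in control ventricles, a ratio of 5.04. The log2 fold change was 2.33 ± 0.62, with an interval of 1.11 to 3.55 (Benjamini-Hochberg adjusted p of the authors' test = 0.00955), and it did not pass under the Benjamini-Yekutieli adjustment (adjusted p = 0.0966, from 0.00580 to 0.0966 over the alternatives). All 9 tested macrophage markers also had higher values in the DMVD ventricle, and their summed level over the 10 with a row was 79.7 FPKM in DMVD ventricles and 32.1 FPKM in control ventricles. Their part in the SPP1 difference was not tested.

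SOX9 had 3.65 FPKM in DMVD ventricles and 1.21 FPKM in control ventricles. Its log2 fold change was 1.59 ± 0.51, with an interval of 0.60 to 2.59 and p = 0.00164 in the authors' deposited table. Its Benjamini-Hochberg adjusted p of 0.0523 did not pass. In a normal test on the authors' errors SOX9 passed when fold changes were centred on the median of all tested genes (adjusted p = 0.0417). In the same normal test on the authors' errors SOX9 passed with centring on the interstitial cell markers (adjusted p = 0.0304). Over the alternatives, which include other adjustments of the authors' test, its adjusted p ran from 0.0304 to 0.528. Adding 1 FPKM to both groups gave a log2 fold change of 1.07.

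TNFRSF11B had 1.71 FPKM in DMVD ventricles and 2.16 FPKM in control ventricles, with a log2 fold change of -0.34 ± 0.53. SCRG1 had 0.487 FPKM in DMVD ventricles and 1.16 FPKM in control ventricles, with -1.25 ± 1.91. Neither passed. The matrix genes ACAN, CHAD and CRTAC1 were not tested in the ventricle by the authors, and all 3 were low. ACAN had 0.00663 FPKM in DMVD ventricles and 0.0149 FPKM in control ventricles, and CHAD had 0.0681 FPKM in DMVD ventricles and 0.145 FPKM in control ventricles. CRTAC1 had 0.0640 FPKM in DMVD ventricles and 0.156 FPKM in control ventricles.

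The DMVD effects in the valve and the ventricle were then compared gene by gene, as the valve log2 fold change minus the ventricle one. Of 13099 genes with both, 0.107% passed an adjusted p of 0.05, and 0 of the 4 genes with both values did. From the authors' errors TNFRSF11B had a difference of 2.002 ± 0.73 (p = 0.00612, Benjamini-Hochberg adjusted p = 0.781). In the same normal test on the authors' errors SPP1 had -2.14 ± 0.83 (p = 0.00978, adjusted p = 0.979) and SOX9 had -1.56 ± 0.70 (p = 0.0270, adjusted p = 0.99995), so 3 of the 4 had an unadjusted p under 0.05, beside 2.66% of all genes compared. SCRG1 had 0.55 ± 1.99, with the sign turning to -0.02 when both tissues were centred on the interstitial cell markers. The test treats the tissues as independent, although matching labels place 4 dogs in both.

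The levels in valve and ventricle can only be set side by side, because the 2 tables were normalised separately. Over 11498 genes above 1 FPKM in both control tissues the median log2 ratio of control valve over control ventricle was 0.31. All 7 genes had a higher listed level in the valve, in DMVD and in control dogs alike. So did most genes above 1 FPKM in either tissue and above 0 in both. Their median log2 ratio of valve over ventricle was 0.49 in DMVD and 0.38 in control. For ACAN the ventricle level is so near 0 that the ratio is not read as a size. CHAD had 20.8 FPKM in control valves and 0.145 FPKM in control ventricles, a log2 ratio of 7.17. CHAD was not tested in the ventricle and lay at percentile 1.47 of tested genes in control ventricles. Its ratio is not read as a size either. SCRG1 had 139.6 FPKM in control valves and 1.16 FPKM in control ventricles, a log2 ratio of 6.91. SOX9 had 30.7 FPKM in control valves and 1.21 FPKM in control ventricles, a log2 ratio of 4.67. These ratios lay at percentiles 99.7, 99.7 and 98.7 of the 13080 genes above 1 FPKM in either control tissue. Of the other genes SPP1 had a log2 ratio of valve over ventricle of 0.78 in DMVD and 2.92 in control, and TNFRSF11B had 3.96 in DMVD and 1.96 in control. SOX9 had 3.11 in DMVD, below TNFRSF11B there.

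**Figure D3:**
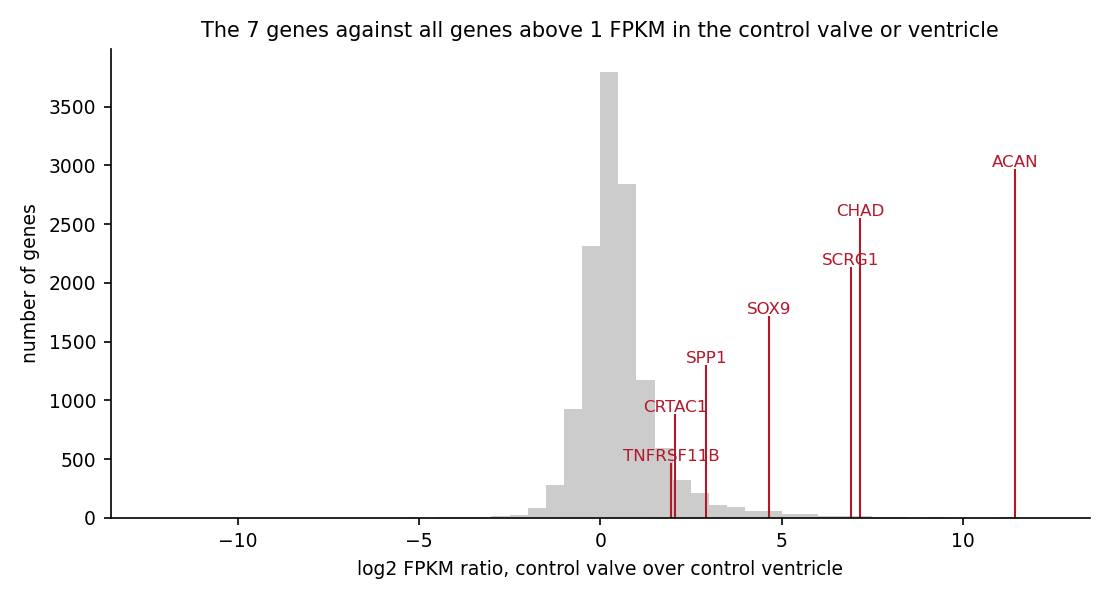
Number of genes by log2 FPKM ratio of control valve over control ventricle, in bins of 0.5, for genes above 1 FPKM in either tissue and above 0 in both; red lines mark the 7 genes at heights chosen only for legibility. CRTAC1 is under 1 FPKM in both tissues and is not among the genes counted. ACAN, CHAD, SCRG1 and SOX9 lie far right of the bulk, and TNFRSF11B, SPP1 and the cartilage gene CRTAC1 lie nearer to it. The positions of ACAN and CHAD rest on ventricle levels near 0 and are not read as sizes.

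Further genes of cartilage and mineral biology were read as lists, which include the 7 genes where they belong. In the valve 0 of 27 tested cartilage matrix genes passed the authors' test after Benjamini-Hochberg adjustment. At an unadjusted p of 0.05 in the authors' deposited table, 1 gene was higher and 2 were lower. The list median was -0.28, with lower values for 18 of the 27. The fibrillar cartilage collagen COL2A1, which defines hyaline cartilage, had 1.66 FPKM in DMVD valves and 1.43 FPKM in control valves. COL9A1, a collagen carried on its surface, had 4.40 FPKM in DMVD valves and 4.85 FPKM in control valves. The gene with the unadjusted rise was CYTL1, a secreted protein of chondrocytes, named after its values were seen. CYTL1 had 108.8 FPKM in DMVD valves and 38.9 FPKM in control valves, with a log2 fold change of 1.48 ± 0.55 (Benjamini-Hochberg adjusted p of the authors' test = 0.477). The 2 unadjusted falls, also named afterwards, were the cartilage intermediate layer proteins CILP (-1.01 ± 0.48) and CILP2 (-1.35 ± 0.60).

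The regulators and mineral genes of the valve were read against 0.419% of all tested valve genes called in either direction and 4.2% at an unadjusted p of 0.05. None passed among 13 chondrogenic regulators (3 unadjusted higher, median 0.14), 11 osteogenic regulators (2 higher, median 0.65), 12 bone matrix genes (0 at an unadjusted p of 0.05, median 0.41), 14 mineral and phosphate genes (0, median 0.01) and 12 calcification inhibitors (2 higher, median 0.47). The authors' test with Benjamini-Hochberg adjustment was used for each. The osteoblast transcription factor SP7 had 0.0540 FPKM in DMVD valves and 0.124 FPKM in control valves. The osteocalcin gene BGLAP, a marker of mature osteoblasts, had 22.3 FPKM in DMVD valves and 24.0 FPKM in control valves, with a log2 fold change of -0.10 ± 0.77. FOSL2, an AP-1 factor active in bone cells, had 17.2 FPKM in DMVD valves and 3.35 FPKM in control valves, and its 2.36 ± 0.66 did not pass (Benjamini-Hochberg adjusted p of the authors' test = 0.0622, and 0.0241, past the threshold, when both tissues were adjusted together).

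Among 15 tested osteopontin receptors and partners 1 rose in the valve, the integrin subunit ITGA8, and 14 did not pass (median 0.41). ITGA8, which pairs with the beta1 subunit in contractile and mesenchymal cells, had 19.9 FPKM in DMVD valves and 3.35 FPKM in control valves. Its log2 fold change was 2.57 ± 0.62 (Benjamini-Hochberg adjusted p of the authors' test = 0.0137), and it did not pass when fold changes were centred on the interstitial cell markers (adjusted p = 0.0970) or under the Benjamini-Yekutieli adjustment (adjusted p = 0.140). The osteopontin receptor CD44 had 68.1 FPKM in DMVD valves and 38.3 FPKM in control valves, at 0.83 ± 0.53. None of 20 aggrecan turnover genes passed (4 unadjusted higher, median 0.52). The aggrecanase ADAMTS4, named after its values were seen, had 10.9 FPKM in DMVD valves and 1.46 FPKM in control valves, at 2.90 ± 0.89 (Benjamini-Hochberg adjusted p of the authors' test = 0.150).

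**Figure D4:**
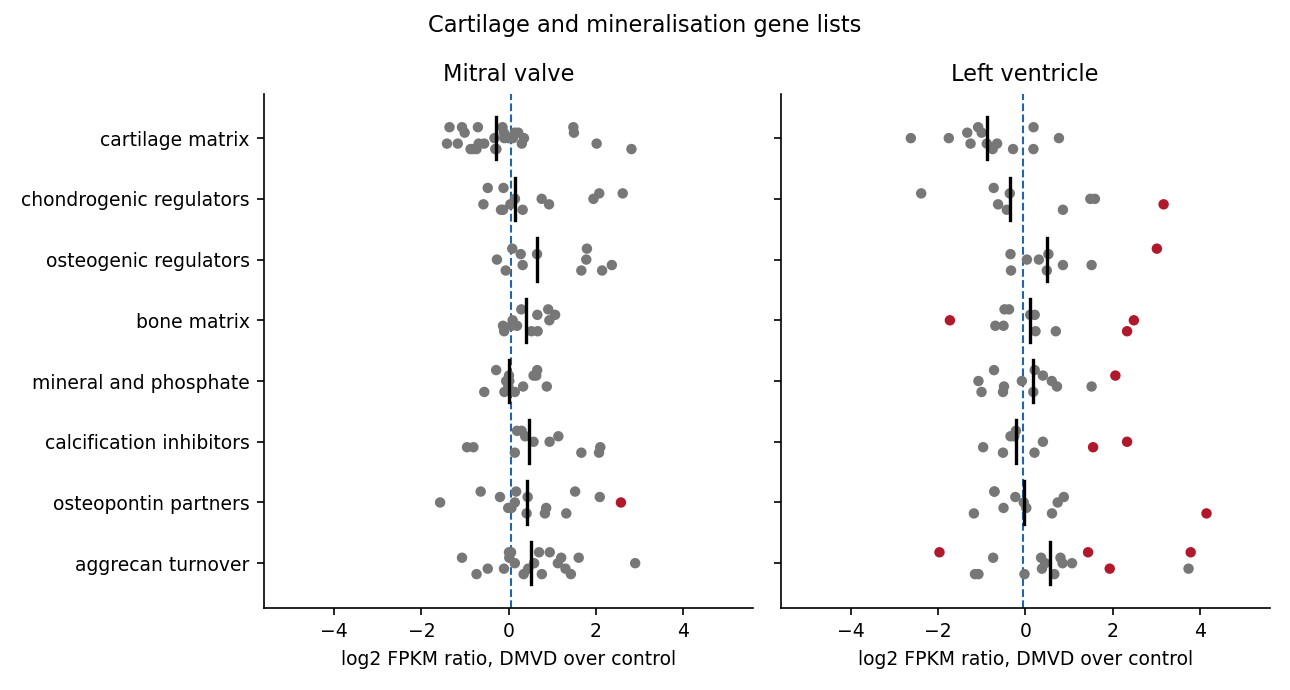
Log2 FPKM ratio of DMVD over control for each tested gene of 8 lists (points, with small vertical offsets), in the mitral valve (left) and the left ventricle (right); black bars are list medians, the dashed line is the median of all tested genes, red marks an adjusted p under 0.05, and genes listed at 0 in a group are left out. In the valve 1 point is red, ITGA8 at 2.57, and the cartilage matrix median lies left of the dashed line in both tissues.

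The list counts of the ventricle stand beside 3.08% of all its tested genes called in either direction and 11.3% at an unadjusted p of 0.05, higher shares than in the valve. Of 9 tested chondrogenic regulators 1 rose, none fell and 8 did not pass (median -0.35). It was PTHLH, the parathyroid hormone-related signal that delays chondrocyte maturation, with 17.0 FPKM in DMVD ventricles and 1.89 FPKM in control ventricles (3.17 ± 0.78). Of 10 osteogenic regulators the AP-1 factors FOSL2 (3.01 ± 0.57) and FOSL1 rose, none fell and 8 did not pass (median 0.49). FOSL1 had 2.41 FPKM in DMVD ventricles and was listed at 0 in control ventricles, and by the authors' test it did not pass under Benjamini-Yekutieli (adjusted p = 0.155).

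Of 11 bone matrix genes SPP1 and the collagen cross-linking enzyme LOX rose, CLEC3B fell and 8 did not pass (median 0.11). LOX had 4.86 FPKM in DMVD ventricles and 0.867 FPKM in control ventricles (2.49 ± 0.48, or 1.65 with 1 FPKM added). CLEC3B, which encodes the plasminogen-binding protein tetranectin, had 20.5 FPKM in DMVD ventricles and 67.9 FPKM in control ventricles (-1.73 ± 0.44). Of 14 mineral and phosphate genes the phosphate transporter SLC20A1 rose, with 18.5 FPKM in DMVD ventricles and 4.41 FPKM in control ventricles (2.06 ± 0.43), and 13 did not pass (median 0.18).

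Of 9 calcification inhibitors SPP1 and the BMP-pathway inhibitor SMAD6 (1.55 ± 0.48) rose, none fell and 7 did not pass (median -0.21). By the authors' test SMAD6 did not pass when every listed gene was adjusted (adjusted p = 0.0763), when both tissues were adjusted together (adjusted p = 0.0708) or under Benjamini-Yekutieli (adjusted p = 0.443). Of 11 osteopontin partners THBS1, a matricellular protein with 32.0 FPKM in DMVD ventricles and 1.80 FPKM in control ventricles, rose by 4.15 ± 0.48 on the log2 scale and 10 did not pass (median -0.03). None of 13 cartilage matrix genes passed the authors' test after Benjamini-Hochberg adjustment (0 higher and 2 lower at an unadjusted p of 0.05, median -0.88).

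Of 16 aggrecan turnover genes in the ventricle 3 rose, 1 fell and 12 did not pass (median 0.56). The protease ADAMTS9, which cleaves aggrecan and versican, rose by 3.79 ± 0.46 on the log2 scale, with 15.5 FPKM in DMVD ventricles and 1.12 FPKM in control ventricles. The link protein HAPLN3 (1.93 ± 0.59) and SLC35D1, a transporter of nucleotide sugars for chondroitin sulphate synthesis (1.44 ± 0.42), also rose. By the authors' test HAPLN3 did not pass when every listed gene was adjusted (adjusted p = 0.0662), when both tissues were adjusted together (adjusted p = 0.0616) or under Benjamini-Yekutieli (adjusted p = 0.385), and its log2 fold change was 1.27 with 1 FPKM added. SLC35D1 did not pass under Benjamini-Yekutieli of the authors' test (adjusted p = 0.272). CSGALNACT1, an enzyme that starts and extends chondroitin sulphate chains such as those on aggrecan, fell to 0.553 FPKM in DMVD ventricles, against 2.16 FPKM in control ventricles. Its log2 fold change was -1.96 ± 0.52 in the ventricle (Benjamini-Hochberg adjusted p of the authors' test = 0.00927, and 0.0937 under Benjamini-Yekutieli) and -1.02 with 1 FPKM added to both groups.

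Markers of other cell types were read beside these results. In the valve 12 of 13 tested cardiomyocyte markers had lower values in DMVD and 1 passed, the ventricular light chain MYL3, which fell by 5.19 ± 0.68 on the log2 scale. Their summed level was 18841 FPKM in DMVD valves and 35386 FPKM in control valves. All 8 tested interstitial cell markers had higher values in DMVD valves, 0 passed (0 also at an unadjusted p of 0.05), and their median was 0.47. Their summed level over the 9 with a row was 3178 FPKM in DMVD valves and 2344 FPKM in control valves.

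Immune and vessel markers also had higher values in DMVD valves, though most did not pass. All 10 macrophage markers had higher values in DMVD valves and the complement gene C1QB passed (2.12 ± 0.55), with a list median of 1.84 and a summed level of 247.0 FPKM in DMVD valves and 79.2 FPKM in control valves. By the authors' test C1QB did not pass when every listed gene was adjusted (adjusted p = 0.0526) or under Benjamini-Yekutieli (adjusted p = 0.328). In the normal test on the authors' errors C1QB did not pass with centring on the interstitial cell markers (adjusted p = 0.189). All 6 endothelial markers had higher values and EMCN passed (2.37 ± 0.53), with a summed level of 104.4 FPKM in DMVD valves and 43.7 FPKM in control valves. By the authors' test EMCN did not pass under Benjamini-Yekutieli (adjusted p = 0.0585), nor by the normal test with that centring (adjusted p = 0.0659). Neither of the 2 tested osteoclast markers passed. The protease CTSK had 201.0 FPKM in DMVD valves and 139.2 FPKM in control valves. The untested genes DCSTAMP, OCSTAMP and OSCAR of the osteoclast list were at or under 0.187 FPKM in both. ATP6V0D2, also untested, had 0.264 FPKM in DMVD valves and 0.0879 FPKM in control valves. None of 7 smooth muscle markers (2 unadjusted higher, median 0.55) and neither of 2 adipocyte markers (2 unadjusted lower, median -1.83) passed. By the authors' test PLIN1 did pass as lower when both tissues were adjusted together (adjusted p = 0.0244). In the normal test on the authors' errors PLIN1 also passed as lower with centring on the interstitial cell markers (adjusted p = 0.00603).

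The part of these markers in the valve values of the 7 genes was not tested beyond the centring on interstitial cell markers. That centring, which subtracts 0.47 from every valve fold change, turned the 46 higher and 16 lower calls of the valve into 11 higher and 49 lower.

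In the ventricle 1 of 11 tested cardiomyocyte markers rose, NPPA (1.95 ± 0.53), with a median of -0.11. MYH7 and CKM carried no usable control value there. The remaining ventricle markers were 1 of 8 interstitial cell markers higher (POSTN, 3.64 ± 0.99, or 2.19 with 1 FPKM added), 0 of 7 smooth muscle markers (1 unadjusted higher and 2 lower), 1 of 9 macrophage markers higher (C1QB, 1.57 ± 0.45) and 0 of 2 osteoclast markers (0 unadjusted). Endothelial markers gave 2 of 6 higher, ROBO4 (1.68 ± 0.43) and VWF (1.79 ± 0.49), and both adipocyte markers fell, PLIN1 (-4.48 ± 0.79, or -2.37 with 1 FPKM added) and CIDEC (-2.86 ± 0.80, or -1.33 with 1 FPKM added). Under the Benjamini-Yekutieli adjustment of the authors' test NPPA (adjusted p = 0.126), POSTN (adjusted p = 0.116), C1QB (adjusted p = 0.2004), ROBO4 (adjusted p = 0.0571), VWF (adjusted p = 0.127) and CIDEC (adjusted p = 0.163) did not pass in the ventricle.

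**Figure D5:**
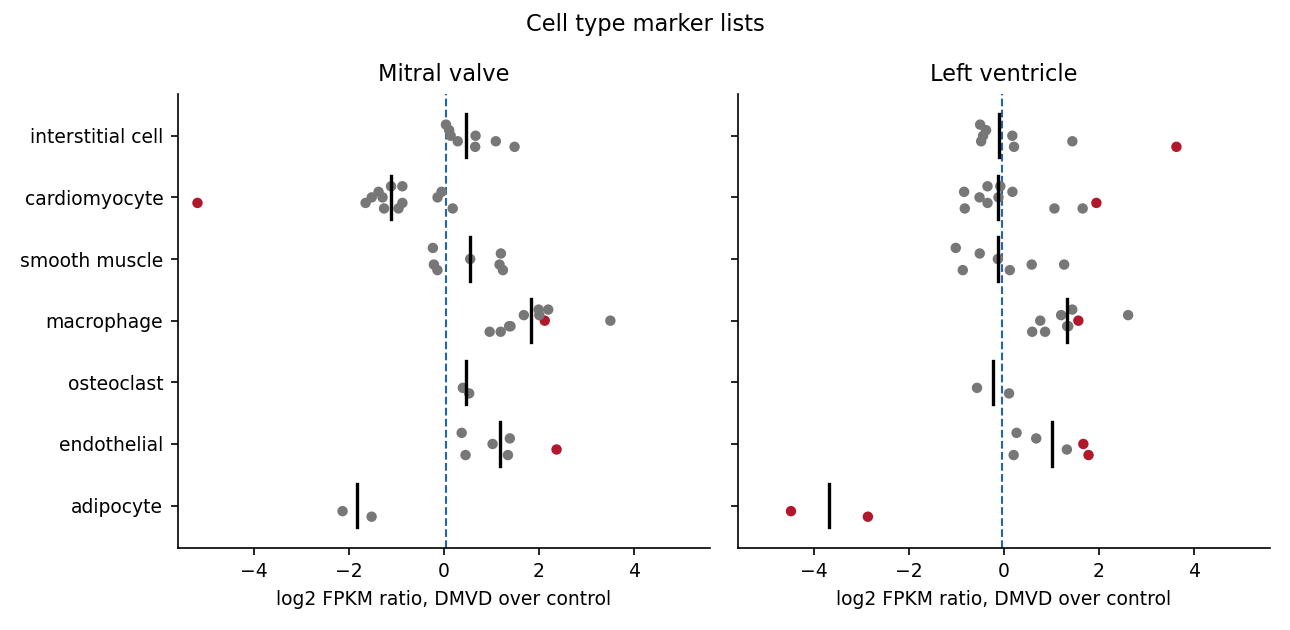
Log2 FPKM ratio of DMVD over control for each tested marker of 7 cell types (points, with small vertical offsets), in the mitral valve (left) and the left ventricle (right); black bars are list medians, the dashed line is the median of all tested genes and red marks an adjusted p under 0.05. Macrophage and endothelial markers lie right of 0 in both tissues, and the cardiomyocyte median lies at -1.11 in the valve and -0.11 in the ventricle.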

How the data were processed

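Per the labels' protocols, a fibrous-tissue RNA kit and TruSeq library preparation were used. Per the submitters' processing notes, cutadapt, Bowtie and TopHat were used with CanFam3.1, without versions. The program behind the FPKM was not given in the sources used here. For each tissue the authors deposited one table with one FPKM per group, laid out like a Cuffdiff table per the file headers. The log2 fold change that the authors deposited runs as control over DMVD, so it was recomputed from the FPKM as DMVD over control. Dividing it by the test statistic, a score the authors deposited, gave the SE. The authors' deposited p-value is two-sided and unadjusted. For tested genes above 0 in both groups it equals the normal p of that score within 2.84e-06.

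The p-values were adjusted by Benjamini-Hochberg over every tested gene of a tissue, at 0.05. Tissue effects were compared by dividing their difference by its combined SE, with a normal p adjusted over 13099 genes. The procedure was run on simulated normal errors with the authors' SE, drawn independently for each tissue. That run checks the code and not whether those errors or the independence hold. Lists (15, with 242 symbols, of which 191 matched) are given by counts and medians. Named genes were all members found, list genes past the threshold in either tissue and fixed defining markers. Others, namely CYTL1, CILP, CILP2, ADAMTS4, SOX5, SOX6, VCAN, HAPLN1, TNFSF11, TNFRSF11A, CD44, CTSK, DCSTAMP, OCSTAMP, OSCAR, ATP6V0D2 and the locus partners ACSF2 and GOLGA7B, were named outside this rule, after their values were seen. The members and lists were chosen with earlier results of these data known. Locus starts count from 0 in the tables and are given here from 1. The tables hold no values per library, so depth and precision per sample are unknown, and whether libraries came from separate animals is read from the labels alone. Alternatives were pseudocounts of 1 and 0.1 FPKM, a filter at a mean of 1 FPKM, 3 other adjustments and 2 centrings. For a centring the normal p was recomputed from the shifted fold change and the authors' SE, with the centre taken as known. The work used scipy 1.17.1, pandas 2.3.3, numpy 2.4.6 and matplotlib 3.10.9 under Python 3.11.15.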

Additional observations from a re-analysis of the deposited data

Results flagged for a closer look

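By the test of the difference in DMVD effect between the tissues, 2 genes of the lists passed, beside 0.107% of all 13099 genes compared. The lists hold 191 matched symbols, of which only those with an effect in both tissues were compared. They include cell type markers, and MYL3 below is a cardiomyocyte marker. CSGALNACT1, which starts chondroitin sulphate chains, had a valve effect minus ventricle effect of 3.27 on the log2 scale (SE 0.72 from the authors' errors, Benjamini-Hochberg adjusted p = 0.00964). It had 8.74 FPKM in DMVD valves and 3.55 FPKM in control valves, against 0.553 FPKM in DMVD ventricles and 2.16 FPKM in control ventricles. The valve log2 fold change of 1.30 ± 0.50 did not pass by itself and was 0.83 when centred on the interstitial cell markers. With the authors' errors the difference was 2.70 (adjusted p = 0.0660) when both tissues were centred on the interstitial cell markers, 2.12 with 1 FPKM added to every group, and did not pass under Benjamini-Yekutieli (adjusted p = 0.0969). MYL3, the ventricular myosin light chain, had a difference of -5.12 (SE 0.96 from the authors' errors, Benjamini-Hochberg adjusted p = 0.000369), with 36.6 FPKM in DMVD valves and 1335 FPKM in control valves, against 4451 FPKM in DMVD ventricles and 4676 FPKM in control ventricles.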

How the results depend on the processing

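Of 138 alternative values of the members and the counts of calls, 124 were classed as the same, and none reversed a call. A reversal could be counted only for a called value, which among the members was SPP1 in the ventricle alone. Adjustments leave the sign unchanged, so the lack of reversals says little. For adjustments and centrings, same means an unchanged side of the threshold, or a count within a set factor of the main one. For pseudocounts it means a move smaller than the SE. Values that did not pass could change sign and still be classed as the same, as SOX9 and SPP1 did in the valve. The Benjamini-Yekutieli adjustment gave 8 higher and 7 lower valve genes (46 and 16 with Benjamini-Hochberg), 152 higher and 69 lower ventricle genes (265 and 160), and 5 genes that differed between tissues (14). SPP1 in the ventricle kept its 2.33 and did not pass there. Adjusting both tissues together gave 71 higher and 27 lower valve genes. Centring on the interstitial cell markers gave 11 higher and 49 lower valve genes and 31 genes that differed between tissues. SOX9 in the ventricle became 1.64 with centring on all genes and 1.69 with centring on the interstitial cell markers, past the threshold both times, and 1.07 with 1 FPKM added. The causes were not tested. Of 354 alternative values of 22 other named genes, 317 were classed as the same by these rules. No paired analysis was possible because the tables hold one value per group, and leaving out single replicates was not run for the same reason.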
